A study of Homo sapiens with 16 samples.

Results

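The genes described here are TGM2 and 8 genes of the retinoic acid pathway (ALDH1A1, ALDH1A3, DHRS9, DHRS3, CRABP2, CYP26A1, RARB and RARG), 9 of the 63677 genes in the count table. They were chosen by name, with earlier results of these same libraries known and with no record of which comparison led to the choice. Every comparison is therefore treated as one that could have selected them, and their levels and fold changes are given as a description. Which of them a fit across all genes called is stated, but no p-value is printed and nothing is read from it. Each name was found in the table of FPKM (fragment counts scaled by transcript length and library size) and matched by its Ensembl identifier to the table of read counts.

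Retinol is oxidised reversibly to retinal and then irreversibly to retinoic acid, which enters the nucleus and acts through retinoic acid receptors that pair with retinoid X receptors on DNA. Cells limit the signal by reducing retinal back to retinol and by hydroxylating retinoic acid, and the genes for both of these steps are themselves among the known targets of retinoic acid. In the colon epithelium the pathway is known for promoting differentiation, and its enzymes are often altered in colorectal cancer. TGM2 encodes tissue transglutaminase, which crosslinks proteins through glutamine and lysine residues and is a long-known retinoic acid target in several cell types.

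RNA was sequenced from SW480 and SW620, established human colon cancer cell lines that were derived from a primary tumour and a lymph node metastasis of the same patient. The groups of each line were parental cells, cells carrying an empty vector (a control for transduction) and cells transduced with estrogen receptor beta (ERB, the product of ESR2), with 2 libraries a group. A further pair of groups came from SW620 with ERB: one kept for 24 h in DMSO, the solvent, and one kept for 24 h in 10 nM estradiol, a ligand of the receptor. This gave 16 poly(A) libraries in 8 groups, with 12743940 to 18948283 counted reads each. All cells were grown in DMEM with fetal bovine serum, and neither the vector's promoter nor the clonality of the transduced cells is stated in the labels. Nothing says that the 2 libraries of a group came from separate cultures, so p-values measure only the spread between these libraries, which may be technical.

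The classic receptor binding motif of this pathway, a direct repeat, is shown first, because 2 of the genes hold it close to their start: CYP26A1, which followed TGM2 in these cells, and RARB, which was near the limit of detection. Promoters were taken from RefSeq (GRCh38.p14) as 300 bases, from 250 before to 50 after each start; 8 of the 9 genes had at least 1 entry, and TGM2 had none. Both strands were searched for direct repeats of the receptor motif GGTCA or GTTCA with a spacing of 1, 2 or 5 bases between hexamers whose first base was left free. CYP26A1 held a direct repeat with a spacing of 5 on the opposite strand of 1 of its 2 entries, from 90 to 74 bases before the start, within chr10:93073781-93073841 on the + strand. RARB held one on its own strand in 1 of its 4 entries, from 53 to 37 bases before the start, within chr3:25428188-25428248 on the + strand. Capitals mark the repeated motif, which reads TGAAC where it lies on the opposite strand.
CYP26A1: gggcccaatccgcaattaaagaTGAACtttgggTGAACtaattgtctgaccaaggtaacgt
RARB: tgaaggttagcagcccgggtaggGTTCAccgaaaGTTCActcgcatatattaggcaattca
Repeats with a spacing of 5 occurred in 61 of 35116 RefSeq promoters of the same length (0.174%), those with a spacing of 1 in 0.245% and those with a spacing of 2 in 0.159%. No repeat was found in the promoter windows of ALDH1A1, ALDH1A3, DHRS9, DHRS3, CRABP2 or RARG, which says only that these letters are not in those windows. A single copy of the motif was common, in 55.1% of all promoters, and is part of every repeat.

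Before the genes are compared, the libraries labelled SW480 with empty vector need a description of their own. Levels are in CPM, a gene's reads scaled to the total of its library times a scaling factor (TMM) described below. Outside the retinoid genes, 295 genes had 5 CPM or more in both parental SW480 libraries, and the lower of these was at least 8 times the higher of the parental SW620 libraries. For SW480 with empty vector, the median of these genes was 2.19% and 2.07% of the parental SW480 level, close to the 1.41% to 2.04% of the 10 SW620 libraries. In SW480 with ERB it was 16.6% and 20.9%. Of the 35 genes that were high in parental SW620 by the same rule, the median was 28.8% and 66.2% of the parental SW620 level in SW480 with empty vector, 54.4% and 48.3% in SW480 with ERB, 4.58% and 5.59% in parental SW480, and 47.2% to 110% in the 10 SW620 libraries. Both sets were picked on the parental libraries, so the distance between the parental lines follows from the rule. Without the parental libraries, the SW620 range in the 35 genes ended at 98.4%. In the 295 genes the libraries labelled SW480 with empty vector thus stood near the SW620 libraries. In the 35 genes their library I lay below all SW620 libraries and library II among them, both above parental SW480, and SW480 with ERB was as near. Their part in each result was not tested. SW480 with ERB is therefore set against parental SW480 as well as against the empty vector.

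ESR2 had 100 to 187 reads in each of the 8 libraries transduced with ERB and at most 4 in each of the other 8, as labelled. All libraries held the epithelial genes KRT8 (at least 1203 CPM), KRT18 (at least 1149 CPM), EPCAM, VIL1 and CDX2, while KRT20, LGALS4 and GPA33 stayed at or under 1.21 CPM. The 9 epithelial markers summed to 2610 to 4981 CPM in parental SW480, 5318 to 8776 in parental SW620, 7332 and 25833 in SW480 with empty vector and 13673 and 25100 in SW480 with ERB. Most of each sum was KRT8 and KRT18, since VIL1 was at most 655 CPM and EPCAM at most 201 CPM in any library. Of the markers of other cell types, 7 of 8 fibroblast, 5 of 7 leukocyte and 4 of 5 endothelial genes had at least 1 read somewhere. The fibroblast genes summed to 3.89 to 22.3 CPM per library, led by COL1A1 (0.808 to 14.9 CPM), LUM (0.122 to 6.59) and PDGFRB (0.556 to 6.01), while COL3A1 had 0 reads in all 16 libraries. The endothelial genes summed to 0.508 to 3.99 CPM, nearly all of it VWF, with PECAM1 at 0 reads, and the leukocyte genes to 0.225 to 2.39 CPM, mostly CD14, with PTPRC at 1 read in all. Scaling factors (TMM, the trimmed mean of M values of edgeR) ranged from 0.585 in SW480 with empty vector II to 1.36 in SW620 with ERB and DMSO II. Fewer cells of a type and less RNA per cell cannot be told apart in such bulk libraries.

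**Figure D1:**
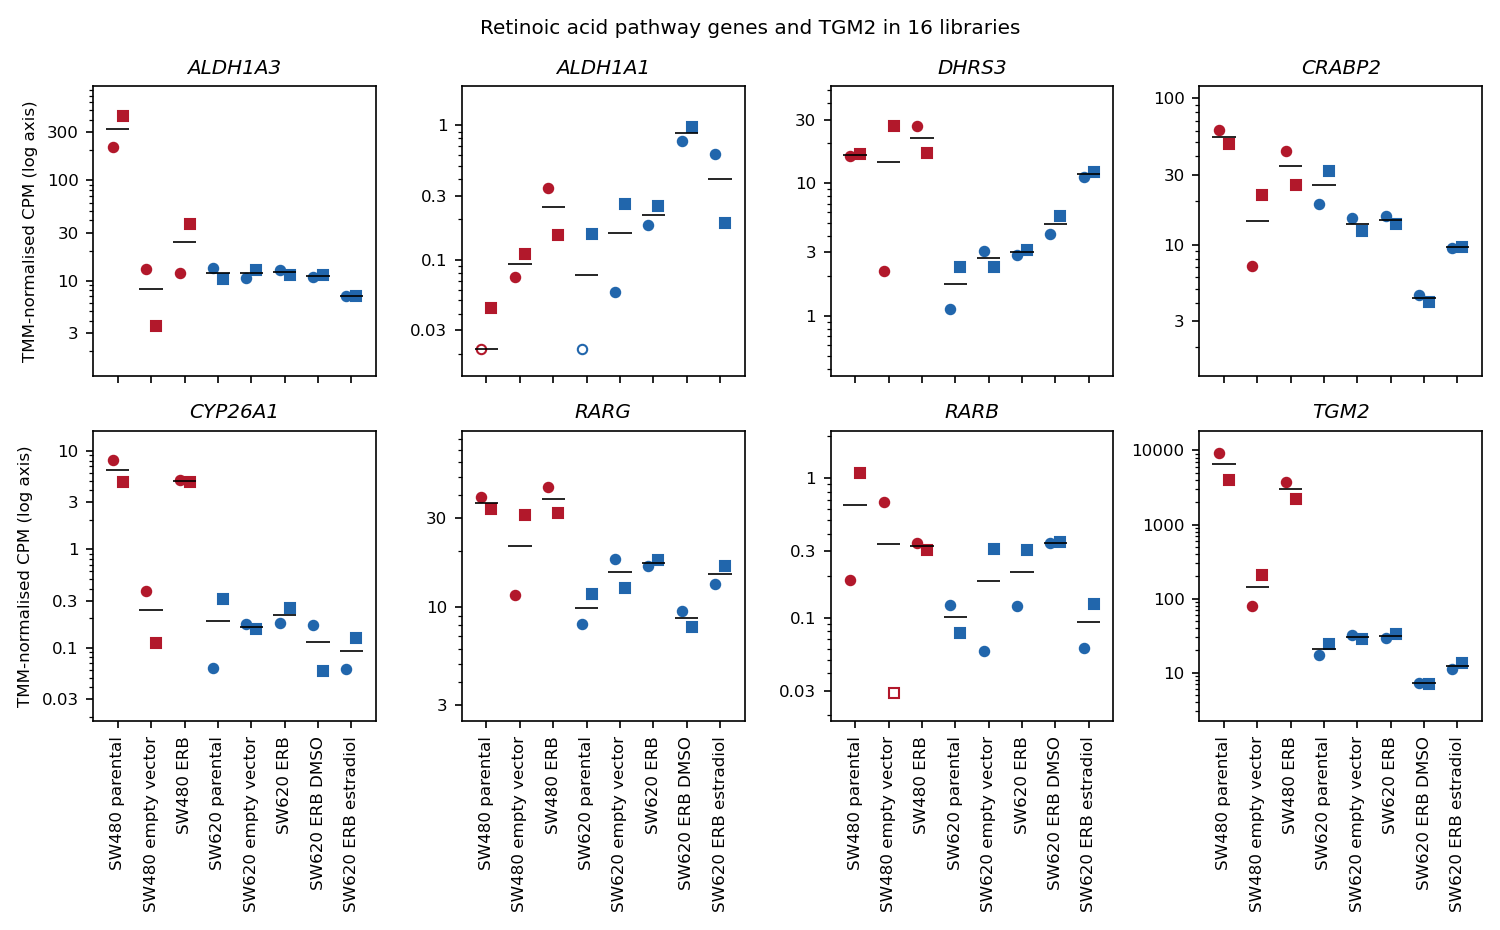
Level of 8 genes in each of the 16 libraries, as TMM-normalised CPM on a log axis with a range of its own in each panel; circles are replicate I, squares replicate II, black lines the group mean, red SW480 and blue SW620, and open symbols at the bottom stand for 0 reads. TGM2 and CYP26A1 were high in parental SW480 and in SW480 with ERB, ALDH1A3 was high in parental SW480, and DHRS9, which had 0 reads in every library, is not drawn.

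Levels within a gene are given in TMM-normalised CPM, with the mean ± SD of the 2 libraries, and levels between genes only in FPKM, which accounts for transcript length. By FPKM, TGM2 was by far the most abundant of the 9 in parental SW480 (1487 ± 678), followed by ALDH1A3 (153 ± 82.3), CRABP2 (77.7 ± 3.38), RARG (20.1 ± 1.51), DHRS3 (9.69 ± 1.28) and CYP26A1 (2.84 ± 0.726). RARB (0.266 ± 0.164) and ALDH1A1 (0.0109 ± 0.0154) were close to 0. In parental SW620 the order was different, with CRABP2 first (32.9 ± 6.57 FPKM), then ALDH1A3 (5.88 ± 3.23), TGM2 (4.47 ± 0.581), RARG (3.66 ± 0.653) and DHRS3 (1.02 ± 0.381). A fit of all 16 libraries with edgeR's quasi-likelihood test gave the fold changes below with their standard errors (SE). In that fit a gene is called where its p-value, adjusted by Benjamini-Hochberg over the 17464 genes tested, is under 0.05. Of the 9 genes, 8 passed its filter on low counts.

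The first step of the pathway, retinol to retinal, is represented by DHRS9, a retinol dehydrogenase. DHRS9 had 0 reads in all 16 libraries, which at a floor of 3 reads allows at most 0.158 to 0.235 CPM per library before TMM scaling, counting error only. No comparison of it was possible.

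Retinal is oxidised to retinoic acid by the retinal dehydrogenases, and of these ALDH1A3 was the one present among the 9 genes. Its level was 217 and 436 CPM in the parental SW480 libraries. It was 13.1 and 3.56 CPM in SW480 with empty vector and 11.97 and 36.9 CPM in SW480 with ERB. Every library outside parental SW480 lay below both of its libraries. The 10 SW620 libraries ran from 7.08 to 13.5 CPM, so the other SW480 libraries lay partly within and partly outside the SW620 range. Parental SW620 was lower than parental SW480 by a log2 fold change of -4.77 (SE 0.66). SW480 with empty vector against parental SW480 gave -5.28 (SE 0.68), and SW480 with ERB against parental SW480 gave -3.74 (SE 0.63). ALDH1A3 thus stayed low in SW480 with ERB, where TGM2 and CYP26A1 were high. Single libraries carried part of these values: the change against parental SW480 was -4.84 without SW480 with ERB II. For the empty vector it was -6.52 without its library I and -4.65 without its library II. SW480 with ERB against the empty vector, where the groups overlapped, gave 1.54 (SE 0.59), which became 0.46 without SW480 with ERB II, and 2.80 or 0.85 without SW480 with empty vector I or II.

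ALDH1A1, the other retinal dehydrogenase of the set and a marker gene of colon stem cells, was near the limit of detection. It had 0 to 5 reads in each library except SW620 with ERB and DMSO, with 18 and 17 reads, and SW620 with ERB and estradiol, with 10 and 3. The DMSO libraries were at 0.766 and 0.981 CPM and the untreated SW620 with ERB libraries at 0.181 and 0.254, so these groups did not overlap. The summed reads, scaled to depth before TMM scaling, were 5.02 times higher with DMSO (95% exact counting interval 2.29 to 12.5), an interval that covers counting error only. The fit gave a log2 fold change of 1.95 (SE 0.76), which is 3.86-fold, and 1.40 with offsets for GC content and length. By FPKM, ALDH1A1 reached 0.6 ± 0.25 with DMSO, against 5.96 ± 0.678 for ALDH1A3 in the same libraries.

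DHRS3 works in the opposite direction, reducing retinal back to retinol, and is known as a retinoic acid-induced brake on the pathway. It was at 15.99 and 16.4 CPM in parental SW480, 2.18 and 26.7 CPM in SW480 with empty vector and 26.9 and 16.8 CPM in SW480 with ERB. The 2 libraries of SW480 with empty vector lay at opposite ends of the SW480 range, with library I within the range of the untreated SW620 cells. The log2 fold change of SW480 with empty vector against parental SW480 was -0.17 (SE 0.75) over both libraries, 0.71 without library I and -2.90 without library II, so the pair gives no single direction. SW480 with ERB against parental SW480 gave 0.43 (SE 0.75) in TMM-scaled counts but -0.15 on log2(FPKM + 1) and -0.80 with offsets for GC content and length, so its direction depended on the scaling. In that comparison the median of all genes was -0.13 in TMM-scaled counts, -0.36 on log2(FPKM + 1) and -0.25 with the offsets.

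In SW620 cells DHRS3 was below parental SW480 in every untreated library: 1.12 and 2.34 CPM in parental SW620, 3.08 and 2.33 when transduced with the empty vector and 2.89 and 3.15 with ERB. Parental SW620 was below parental SW480 by a log2 fold change of -3.24 (SE 0.84), or -2.41 on log2(FPKM + 1) and -3.85 without parental SW620 II. With DMSO, DHRS3 was at 4.13 and 5.66 CPM, and with estradiol at 11.2 and 12.03 CPM. SW620 with ERB thus stepped up without overlap from untreated to DMSO to estradiol, the last being the highest DHRS3 level of any SW620 group. Estradiol against DMSO gave a log2 fold change of 1.25 (SE 0.77), or 0.53 with the GC and length offsets.

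CRABP2 binds retinoic acid in the cytosol and delivers it to its receptors in the nucleus. It was at 60.5 and 48.9 CPM in parental SW480, 43.5 and 25.4 in SW480 with ERB and 7.14 and 21.8 in SW480 with empty vector. Parental SW620 was at 18.9 and 31.9 CPM, SW620 with empty vector at 15.3 and 12.4, and SW620 with ERB at 15.8 and 13.9. The lowest levels were those of SW620 with ERB and DMSO, 4.55 and 4.04 CPM, and estradiol lay between, at 9.53 and 9.65 CPM. CRABP2 was below parental SW480 in every other group, with no overlap. The log2 fold change was -1.11 (SE 0.47) for parental SW620, -1.92 (SE 0.48) for SW480 with empty vector and -0.67 (SE 0.47) for SW480 with ERB. The GC and length offsets widened these to -1.77, -3.07 and -2.03. The empty vector value was -1.33 without its library I and -2.95 without its library II. SW480 with ERB was above the empty vector in both libraries, by 1.25 (SE 0.48), a value that was 0.66 without SW480 with empty vector I and 2.20 without II. Within SW620 with ERB, DMSO against untreated gave -1.78 (SE 0.49), and estradiol against DMSO 1.16 (SE 0.48), which the same offsets narrowed to -1.11 and 0.37.

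CYP26A1 hydroxylates retinoic acid for removal, and its transcript is among the most sensitive known readouts of receptor activity. The parental SW480 libraries had 130 and 112 reads, or 8.03 and 4.89 CPM. SW480 with ERB had 44 and 64 reads, or 5.02 and 4.89 CPM, a range that overlaps parental SW480 after TMM scaling. Before TMM scaling it was lower without overlap, at 3.12 and 4.15 against 8.20 and 5.91 CPM, and by FPKM it was also lower without overlap. Each of the other 12 libraries had 1 to 5 reads. The 2 SW480 groups with CYP26A1 reads in number were thus apart from all 6 other groups. Scaled to depth, parental SW480 had 39.5 times the reads of parental SW620 (95% exact counting interval 16.7 to 123) and 33.6 times those of SW480 with empty vector (15.2 to 92.4). SW480 with ERB had 17.7 times those of SW480 with empty vector (7.86 to 49.2). The fitted log2 fold changes were -5.13 (SE 0.63), -4.58 (SE 0.62) and 4.20 (SE 0.62), and 1.16 for the last on log2(FPKM + 1), which understates changes of low genes. With so few reads in the low groups, single libraries moved these: the first was -4.33 or -6.53 without parental SW620 I or II, and without SW480 with empty vector I the other two were -5.77 and 5.39. For SW480 with ERB against parental SW480 the fit gave -0.38 (SE 0.46), or -0.77 with offsets for GC content and length. Scaled to depth alone, its reads were 0.526 times those of parental SW480 (0.416 to 0.663). Even at its highest, CYP26A1 was a low transcript, at 2.84 ± 0.726 FPKM in parental SW480 and 1.43 ± 0.279 FPKM in SW480 with ERB.

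The retinoic acid receptors of the set differed in abundance. RARG was at 39.3 and 33.6 CPM in parental SW480, 44.4 and 32.2 in SW480 with ERB and 11.6 and 31.2 in SW480 with empty vector. In SW620 it was at 8.18 and 11.8 CPM before transduction, 18.2 and 12.8 after the empty vector, 16.7 and 18.0 with ERB, 9.62 and 7.85 with DMSO and 13.3 and 16.7 with estradiol. Parental SW480 and SW480 with ERB lay above all SW620 libraries, and the empty vector group straddled them. Parental SW620 against parental SW480 gave a log2 fold change of -1.87 (SE 0.44). SW480 with ERB against parental SW480 gave 0.07 (SE 0.42) in TMM-scaled counts, but -0.93 on log2(FPKM + 1) and -1.30 with GC and length offsets, so its direction there depended on the scaling. For SW480 with empty vector against parental SW480 it was -0.77 (SE 0.43), or -1.66 without SW480 with empty vector II. Its FPKM was 20.1 ± 1.51 in parental SW480 and 10.1 ± 1.22 in SW480 with ERB. The 9.62 and 7.85 CPM with DMSO were below the untreated SW620 with ERB, at a log2 fold change of -0.99 (SE 0.43), or -0.34 with the offsets.

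RARB, whose promoter holds the repeat printed above, had 0 to 9 reads in 15 of the 16 libraries and 25 in parental SW480 II. The other parental SW480 library had 3. Ordered by level, neighbouring RARB groups overlapped except SW480 with ERB and SW620 with ERB, and parental SW480 stood first (0.638 ± 0.64 CPM) on the strength of that 1 library. CYP26A1, with the same kind of repeat, was 39.5 times higher in parental SW480 than in parental SW620, whereas the ratio of RARB was 7.61 (95% exact counting interval 2.35 to 39.1). The 2 intervals overlap.

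TGM2 had the widest range of group means among the 9 genes, from 6606 ± 3723 CPM in parental SW480 to 7.21 ± 0.157 CPM in SW620 with ERB and DMSO. The parental SW480 libraries had 9239 and 3974 CPM (149610 and 91066 reads, or 0.944% and 0.481% of all counted reads). Their mean took the first place by TMM-normalised CPM among the 17464 genes tested and place 133 by FPKM. SW480 with ERB had 3813 and 2247 CPM, and SW480 with empty vector 79.8 and 209 CPM. The SW620 libraries were far lower, at 17.4 and 24.3 CPM for the parental line, 32.6 and 28.6 when it carried the vector alone, and 29.6 and 33.2 with ERB. DMSO gave 7.32 and 7.10 CPM, and estradiol 11.2 and 13.5 CPM. Ordered by level, the groups ran parental SW480, SW480 with ERB, SW480 with empty vector, SW620 with ERB, SW620 with empty vector, parental SW620, estradiol and DMSO. Only SW620 with ERB and SW620 with empty vector overlapped among neighbours in that order.

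Parental SW620 had less TGM2 than parental SW480 by a log2 fold change of -8.31 (SE 0.65), a 317-fold difference. SW480 with empty vector against parental SW480 gave -5.52 (SE 0.57), SW480 with ERB against the empty vector 4.39 (SE 0.54), and SW480 with ERB against parental SW480 -1.12 (SE 0.48). These comparisons share groups and are given side by side. Without parental SW480 I, the higher of its pair, these became -7.59 for parental SW620, -4.80 for the empty vector and -0.46 for ERB against parental SW480. Without SW480 with empty vector II the change against parental SW480 was -6.39 and that of ERB against the empty vector 5.18. In SW620, empty vector against parental gave 0.55 (SE 0.48) and ERB against empty vector 0.04 (SE 0.47). The 4.39 of ERB in SW480 thus stands beside 0.04 in SW620, a difference of 4.35 (SE 0.70). The interaction term of the fit called it, beside 0.189% of all genes higher in SW480 and 0% lower, but the call was lost with the replicate block and in 12 of the 16 fits that left out 1 library, all but those without parental SW480 or SW480 with empty vector. After DMSO, TGM2 was 4.35-fold lower than in untreated SW620 with ERB, a log2 fold change of -2.12 (SE 0.50), or -1.36 on log2(FPKM + 1). Estradiol against DMSO gave 0.77 (SE 0.49), or 0.29 with the GC and length offsets.

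**Figure D2:**
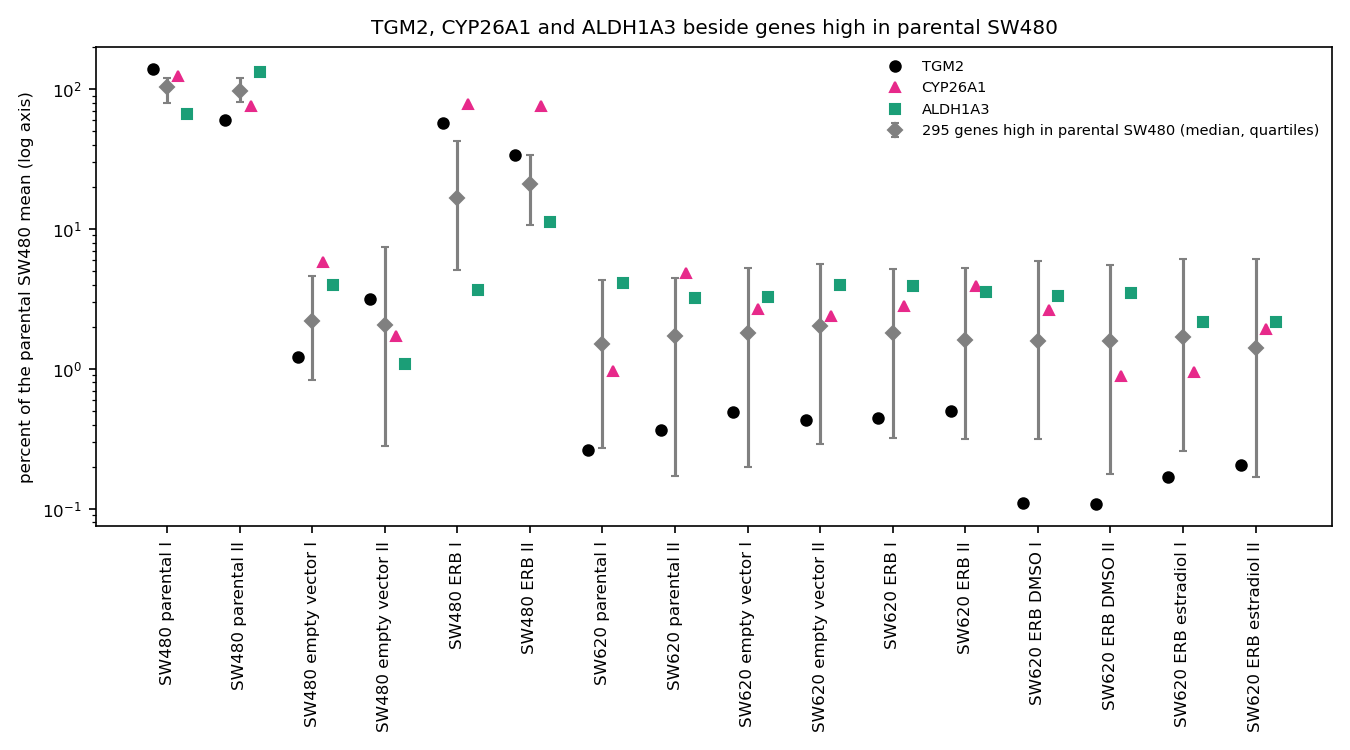
Level of TGM2, CYP26A1 and ALDH1A3 in each of the 16 libraries in percent of its mean in parental SW480 (log axis), beside the median and quartiles of the 295 other genes high in parental SW480. In SW480 with empty vector all 3 genes lie between 1.09% and 5.82%, and in SW480 with ERB TGM2 lies above the median of the other genes while ALDH1A3 lies below it. CYP26A1 also lies above it there, but it did not meet the rule of the 295 genes and is not directly comparable with them.

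Set beside the genes that mark parental SW480, the retinoid genes differed in SW480 with ERB. Only TGM2 and ALDH1A3 met the rule of that set themselves. CYP26A1, CRABP2, DHRS3 and RARG did not, so their percentages are not directly comparable with those of the 295 genes. TGM2 was at 1.21% and 3.17% of its parental SW480 level in SW480 with empty vector, where the median of the 295 genes was 2.19% and 2.07%, and at 57.7% and 34.0% in SW480 with ERB, where it was above 256 and 223 of the 295. CYP26A1 was at 5.82% and 1.72% with empty vector and at 77.7% and 75.7% with ERB. ALDH1A3 was at 4.002% and 1.09% with empty vector but only at 3.67% and 11.3% with ERB, above 52 and 81 of the 295. CRABP2 was at 13.05% and 39.9% with empty vector and at 79.4% and 46.4% with ERB. DHRS3 was at 13.4% and 165% with empty vector and at 166% and 104% with ERB. RARG was at 31.9% and 85.5% with empty vector and at 122% and 88.4% with ERB. High percentages of DHRS3 and RARG were thus also seen in SW480 with empty vector II. These percentages are of TMM-normalised CPM, and on the FPKM scale those of SW480 with ERB were lower for most: 33.8% and 27.4% for TGM2, 43.4% and 57.3% for CYP26A1, 50.7% and 35.6% for CRABP2, 54.4% and 45.8% for RARG and 96.1% and 81.2% for DHRS3, so that RARG and DHRS3 fell below parental SW480. ALDH1A3 was at 3.97% and 15.2%. The positions of TGM2 and ALDH1A3 among the 295 genes are a description of libraries in which that whole set also moved.

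The number of these genes called is given beside the share of all genes called, and nothing is read from it, since the genes may have been chosen on these very values. Between the parental lines 5 of the 8 tested genes (TGM2, ALDH1A3, DHRS3, CYP26A1 and RARG) were called lower in SW620, where 11.2% of all genes were called lower and 6.84% higher. Leaving out either parental SW620 library took this count to 3, with the calls of DHRS3 and RARG lost, and DHRS3 was also lost without parental SW480 II. In SW480 with empty vector against parental SW480, TGM2, ALDH1A3, CRABP2 and CYP26A1 were called lower, beside 16% of all genes lower and 14.9% higher, and the call of CRABP2 was lost in the fit of SW480 libraries alone. In SW480 with ERB against empty vector TGM2 and CYP26A1 were called higher, beside 1.1% of all genes higher and 0% lower. Over all genes this was 192 higher and 0 lower, a split that became 82% higher among 523 calls with the GC and length offsets and 86.6% among 396 by DESeq2. The count of the set was 5 without SW480 with empty vector II, and 0 in a fit restricted to the 6 libraries of SW480. In SW480 with ERB against parental SW480 only ALDH1A3 was called, lower, beside 24.9% of all genes lower and 19.5% higher. That call was lost in the fit of SW480 libraries alone, and the count was 2 without either library of SW480 with empty vector.

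**Figure D3:**
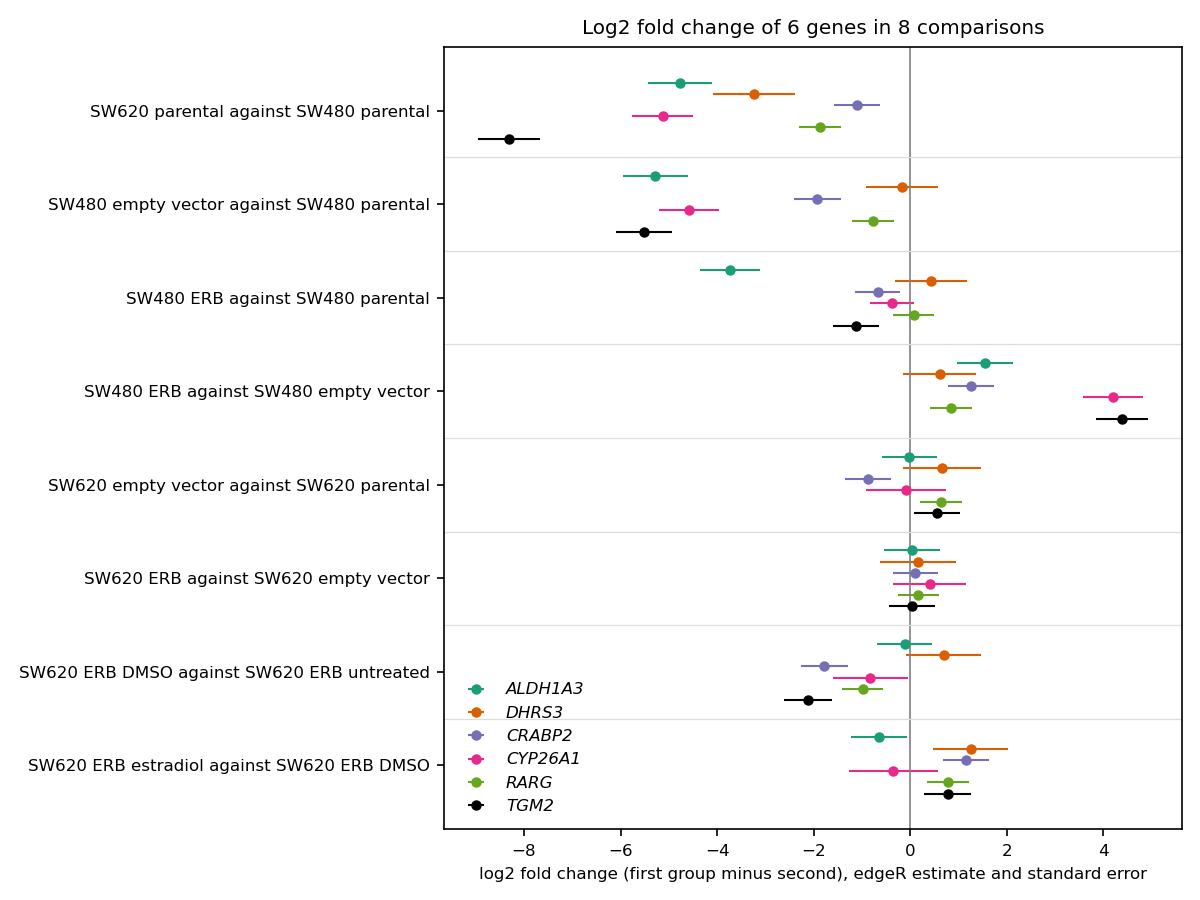
Log2 fold change of 6 genes in 8 comparisons, first group minus second, from the edgeR fit of all 16 libraries; points are estimates and bars 1 standard error. In SW620 with empty vector and with ERB all 6 genes lie between -0.88 and 0.66, while TGM2 reaches -8.31 between the parental lines and 4.39 in SW480 with ERB against empty vector.

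In SW620 the changes after the empty vector were small beside those in SW480 for TGM2, ALDH1A3 and CYP26A1. With SW620 given first, CRABP2 had -0.88 against -1.92 and ALDH1A1 1.13 against 1.57. RARG had 0.63 against -0.77, RARB 0.83 against -0.80 and DHRS3 0.66 against -0.17. None of the 8 tested genes was called in SW620 with empty vector against parental, beside 0% of all genes higher and 0% lower by edgeR (276 genes at an unadjusted p under 0.05, and 11 by DESeq2). None was called in SW620 with ERB against empty vector, beside 0.00573% higher, which is 1 gene, and 0% lower (94 at an unadjusted p under 0.05, and 1 by DESeq2). CRABP2 was the gene whose parental and empty vector libraries did not overlap in the lower direction, at a log2 fold change of -0.88 (SE 0.47). TGM2 (0.55) and RARG (0.63, SE 0.43) did not overlap in the higher direction. The share of all genes without overlap was not counted. All 8 fold changes of SW620 with ERB against empty vector lay between 0.04 and 0.42. Between the lines, the interaction term called the effect of the empty vector lower in SW480 for TGM2, ALDH1A3 and CYP26A1, beside 3.01% of all genes higher and 4.2% lower, and the call of CYP26A1 was lost without parental SW620 I or either library of SW620 with empty vector.

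With 24 h of DMSO none of the 8 tested genes overlapped untreated SW620 with ERB in TMM-normalised CPM. TGM2, CRABP2, RARG, ALDH1A3 (log2 fold change -0.12, SE 0.57) and CYP26A1 (5 against 8 reads) were lower. DHRS3, ALDH1A1 and RARB (14 against 8 reads) were higher. The direction of ALDH1A3 depended on the scaling. Before TMM scaling it was higher with DMSO, at 14.7 and 15.5 against 13.4 and 12.1 CPM. By FPKM its groups overlapped, with a change of 0.05 on log2(FPKM + 1). CYP26A1 overlapped before TMM scaling. The share of all genes without overlap was not counted, so the lack of overlap sets none of these genes apart. Of the 8 tested genes TGM2 was called lower, beside 3.76% of all genes lower and 2.39% higher, and this call was lost without any 1 of the 8 SW620 libraries other than the parental ones, and with the replicate number as a block. With either library of parental SW480 left out the count was 2, and with either of SW480 with empty vector left out it was 3. When the 10 SW620 libraries were fitted alone, without the wider spread of the SW480 groups, TGM2, CRABP2 and RARG were called lower and ALDH1A1 higher, beside 25.2% of all genes lower and 23.6% higher. Over the same comparison the epithelial markers, mostly KRT8 and KRT18, summed to 2947 and 3370 CPM with DMSO and to 8819 and 8864 CPM in untreated cells. Their part in these differences was not tested. The labels do not say whether the untreated cells were cultured alongside the DMSO cells, so DMSO and any other difference between those cultures cannot be told apart.

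TGM2, CRABP2 and RARG, which were lower with DMSO than in untreated cells, were each higher with estradiol than with DMSO in both libraries with no overlap. ALDH1A1, higher with DMSO, was lower with estradiol, also without overlap, as was RARB, on 3 against 14 reads. The share of all genes without overlap was not counted here either. DHRS3 was higher at both steps, and ALDH1A3 was lower with estradiol, at 7.08 and 7.08 against 10.9 and 11.4 CPM (log2 fold change -0.66, SE 0.58). RARG changed sign to -0.13 under the GC and length offsets. None was called in the fit of all libraries, beside 0% of all genes higher and 0% lower by edgeR, although 3469 genes had an unadjusted p under 0.05 and DESeq2 called 72. In the fit of the 10 SW620 libraries alone TGM2, DHRS3, CRABP2 and RARG were called higher and ALDH1A3 lower, beside 29.4% of all genes higher and 23.6% lower. Over the same comparison the epithelial markers, mostly KRT8 and KRT18, summed to 5993 and 7100 CPM with estradiol and to 2947 and 3370 CPM with DMSO. Their part was not tested. Because the DMSO group is shared, the changes against untreated cells and the changes with estradiol are not independent. Estradiol left TGM2 and CRABP2 below their untreated levels, at 12.3 ± 1.62 against 31.4 ± 2.58 CPM and at 9.59 ± 0.086 against 14.8 ± 1.35 CPM.

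Among genes with at least 5 CPM in some group (12594 genes), those whose log2 levels followed TGM2 most closely over the 16 libraries were MYEOV (Pearson r = 0.994), ZAP70 (0.985), KRT5 (0.983), TOX2 (0.982) and TRIP6 (0.979). MYEOV averaged 236 CPM in parental SW480, 145 in SW480 with ERB, 8.27 in SW480 with empty vector and 3.36 in parental SW620, and KRT5, a basal keratin, 660, 407, 24.7 and 9.11 CPM. Among the genes closest to ALDH1A3 were ZNF462 (0.980) and CCND1 (0.980), the gene of cyclin D1, which averaged 1055 CPM in parental SW480 and 249 CPM in SW480 with ERB. The closest to CYP26A1 were CHST2, CCDC3 and KCNN4 (0.976 each), to DHRS3 TBKBP1 (0.972), TSKU (0.944) and LAMB2 (0.943), to CRABP2 COTL1 (0.961), MPP2 (0.958) and GATA2 (0.953), and to RARG HCN2 (0.962), FMNL3 (0.960) and APOE (0.958). For RARB and ALDH1A1, which rest on few reads, the closest were UBASH3B (0.800) and ST7L (0.830). Within the set, TGM2 was closest to CYP26A1 (0.949) and RARG (0.894) and less close to ALDH1A3 (0.705). The points of these correlations share libraries and 8 group means, so they describe the pattern and carry no p-value.

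The rest of the pathway was followed in a separate list of 103 retinoid genes in 7 roles, none of them in the set above, of which 102 were matched and 71 passed the filter. Between the parental lines 13 of the 71 were higher and 18 lower in SW620, beside the 6.84% and 11.2% of all genes, with a list median log2 fold change of -0.03 against -0.05 over all genes. Among the genes higher in SW620 were AKR1C3, an aldo-keto reductase able to reduce retinal (2.68, SE 0.34, adjusted p = 0.000275), AKR1B1 of the same superfamily (2.52, SE 0.42, adjusted p = 0.00137) and RARRES2, the retinoic acid responsive chemerin gene (2.28, SE 0.49, adjusted p = 0.0071). AKR1C3 has close paralogues, and how reads that match several of them were counted is not stated, so its values are uncertain. Among those lower were RBP7, a cellular retinol-binding protein (-6.46, SE 0.86, adjusted p = 0.000342), F13A1, a transglutaminase like TGM2 (-5.34, SE 0.56, adjusted p = 8.84e-05), and RORA, a retinoid-related orphan receptor (-5.19, SE 0.78, adjusted p = 0.000711), all by edgeR. By role, 4 of 11 tested genes of retinol uptake and storage were higher and 2 lower, 2 and 2 of 13 oxidoreductases, 1 and 3 of 18 receptors and cofactors, and 4 and 9 of 20 retinoic acid responsive genes. The 9 lower responsive genes were HOXB2 (-4.24), HOXB3 (-2.55), HOXB5 (-2.20), PLAT (-3.33), NEDD9 (-3.07), ASB2 (-2.94), UBA7 (-1.85), MEIS2 (-1.80) and GPRC5A (-1.44), and the higher ones RARRES2, HOXA3, HOXA4 and BTG2. Without parental SW620 II the list had 16 calls, and the call of RARRES2 was lost without that library or parental SW480 II. Among the responsive genes the calls of UBA7 and MEIS2 were lost in 14 and 10 of the 16 fits that left out 1 library and on the FPKM scale, that of UBA7 also by DESeq2 and without the filter and that of MEIS2 with the replicate block. Those of GPRC5A, HOXA3 and BTG2 were lost without either parental SW620 library or parental SW480 I, that of HOXA4 without parental SW620 II or parental SW480 I, and that of ASB2 without parental SW620 II. The calls of HOXA3, HOXA4 and BTG2 were also lost without the filter, those of HOXA3 and HOXA4 with the offsets, and those of HOXA3 and BTG2 in FPKM.

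**Figure D4:**
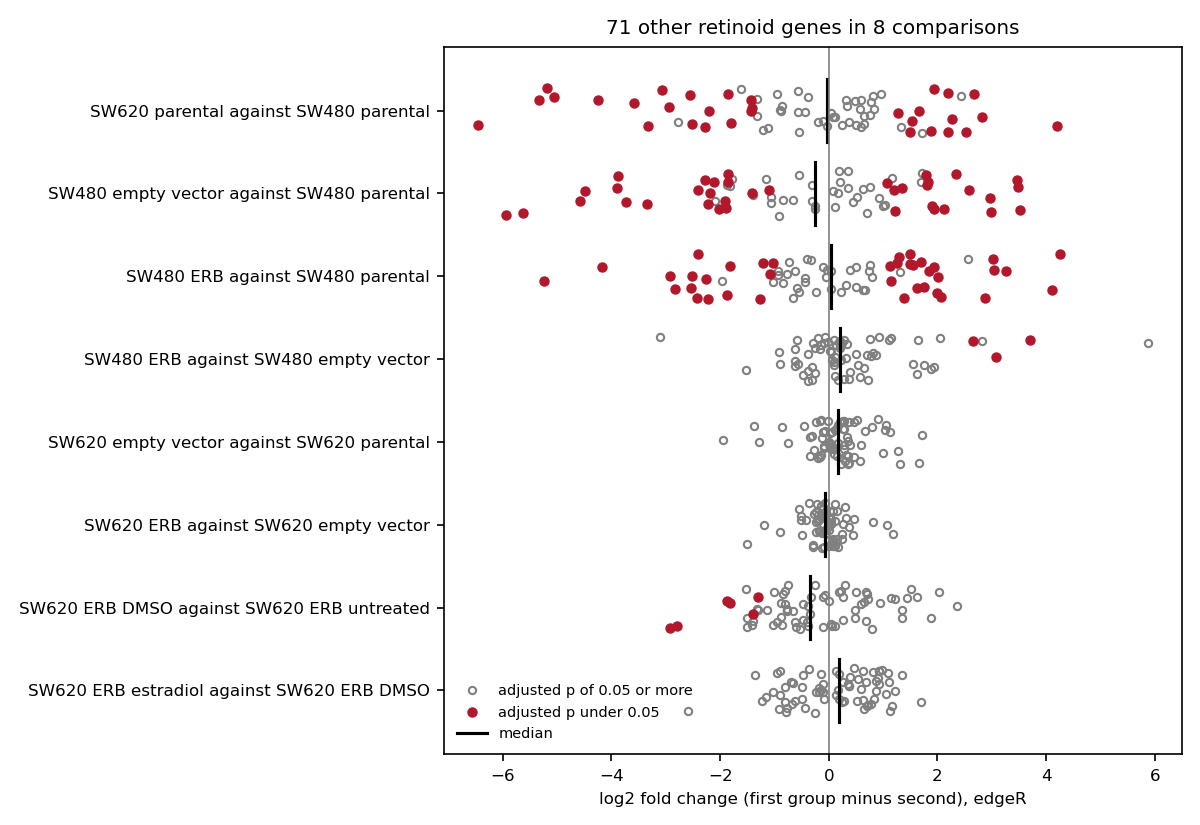
Log2 fold change of the 71 tested genes of the separate retinoid list in 8 comparisons, first group minus second, from edgeR; filled points have an adjusted p under 0.05 over all genes, open points do not, and black bars mark the medians. Calls are many between parental SW480 and the other SW480 or parental SW620 groups, 3 in SW480 with ERB against empty vector, 6 with DMSO and none in the other 3 comparisons.

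In SW480 with empty vector against parental SW480, 17 of the 71 were higher and 20 lower, beside 14.9% and 16% of all genes (list median -0.25, all genes -0.11), and without parental SW480 II 21 were called in all. ISX, an intestinal homeobox factor that limits vitamin A uptake, was higher (3.51, SE 0.53, adjusted p = 0.000778), as were AKR1B1 (2.98) and AKR1C3 (2.58). In the fit of SW480 libraries alone the 37 calls became 8, and those of ISX and AKR1C3 were lost. RORA (-5.95, SE 0.85, adjusted p = 0.000524), RBP7 (-4.49, SE 0.74, adjusted p = 0.0013) and HOXB2, a homeobox gene of a retinoic acid responsive cluster (-3.91, SE 0.43, adjusted p = 0.000129), were lower by edgeR. RORA was at 5.87 and 28.7 CPM in parental SW480 and at or under 1.15 CPM in each of the other 14 libraries.

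In SW480 with ERB against empty vector 3 of the 71 were higher and none lower by edgeR, beside 1.1% and 0% of all genes, with 17 at an unadjusted p under 0.05 and 6 called by DESeq2. These were RBP7 (3.71, SE 0.74, adjusted p = 0.0341), F13A1 (3.07, SE 0.50, adjusted p = 0.0102) and HOXB2 (2.65, SE 0.41, adjusted p = 0.00756). F13A1 stood at 34.1 and 27.3 CPM in parental SW480, 14.1 and 24.6 in SW480 with ERB and 3.08 and 1.45 in SW480 with empty vector, the same order of the SW480 groups as TGM2. RBP7 stood at 13.2 and 6.33, 6.61 and 4.81, and 0.150 and 0.779 CPM. All 3 calls were lost in the fit of SW480 libraries alone. The call of F13A1 was also lost without SW480 with ERB II and on log2(FPKM + 0.1), that of HOXB2 on the FPKM scale, and that of RBP7 with the replicate block and in 11 of the 16 fits that left out 1 library: either library of parental SW620, SW620 with ERB, DMSO, estradiol or SW480 with ERB, and SW480 with empty vector I. The list had 1 call without SW480 with ERB II and 10 without SW480 with empty vector II.

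Against parental SW480, SW480 with ERB had 22 of the 71 higher and 16 lower, beside 19.5% and 24.9% of all genes (list median 0.03, all genes -0.13). ALDH1A2, a further retinal dehydrogenase, was higher by edgeR (4.11, SE 0.56, adjusted p = 0.00116), at 7.64 and 10.2 CPM against 0.494 and 0.524. ALDH1A3, in contrast, was lower in the same libraries. With empty vector ALDH1A2 was at 5.93 and 2.003 CPM, also above parental SW480, so its higher level was not limited to SW480 with ERB. In SW480 with ERB, ISX (3.27, SE 0.53, adjusted p = 0.0023) and RARRES2 (3.05, SE 0.51, adjusted p = 0.00263) were also higher than in parental SW480 by edgeR. Of 18 tested receptors and cofactors 4 were higher and 8 lower. The lower ones included RORA (-5.24, SE 0.80, adjusted p = 0.00183) and the coregulators NRIP1 (-4.18, SE 1.17, adjusted p = 0.0177) and NCOA2 (-2.92, SE 0.91, adjusted p = 0.0253), both lost without parental SW480 II, without SW480 with ERB I, with the GC and length offsets and in FPKM. The 38 calls became 16 without parental SW480 II, 11 without SW480 with ERB I and 0 in the fit of SW480 libraries alone. RARA, the third retinoic acid receptor, was not called (0.66, SE 0.50, adjusted p = 0.284), at 31.4 ± 5.96 CPM in parental SW480 and 49.5 ± 9.78 CPM in SW480 with ERB. By FPKM RARA (21.8 in parental SW480) was near RARG (20.1) and above RARB (0.266).

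In SW620 none of the 71 was called by edgeR in empty vector against parental or in ERB against empty vector, with 4 and 2 at an unadjusted p under 0.05. With DMSO 6 of the 71 were lower and none higher, where 3.76% of all genes were lower and 2.39% higher. RARRES2 went from 124 and 116 CPM in untreated cells to 19.3 and 15.4 with DMSO (-2.79, SE 0.50, adjusted p = 0.0114), HOXB4 from 29.8 and 26.3 to 8.51 and 6.81 (-1.87, SE 0.28, adjusted p = 0.00756) and AKR1B1 from 117 and 125 to 30.9 and 37.9 (-1.82, SE 0.41, adjusted p = 0.0264), by edgeR. No list gene was called without either library of SW620 with ERB or either DMSO library, 3 without either estradiol library, 10 without either parental SW480 library, and 17 or 18 without SW480 with empty vector I or II. Estradiol against DMSO called none by edgeR in the fit of all libraries, with 11 at an unadjusted p under 0.05. In the fit of the 10 SW620 libraries alone 67 list genes were tested, of which 14 were higher and 22 lower with DMSO, and 21 higher and 5 lower with estradiol against DMSO, beside the shares of all genes given above for that fit.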

How the data were processed

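Poly(A) RNA of 16 libraries in 8 groups of 2 was sequenced from stranded libraries, per the labels' protocols. The read counts per gene that the authors deposited are whole numbers whose totals differ between libraries, taken as raw. The FPKM values that the authors deposited are scaled by transcript length and library size. TopHat2 2.0.4, SAMtools, Picard 1.29, HTSeq 0.6.1, Cufflinks 2.1.1 and build GRCh37 were used, per the submitters' processing notes; which tool made which table, and whether counting used the strand, is not stated in them. Antisense and near-identical genes therefore cannot be fully separated.

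The 9 genes and the lists of retinoid and marker genes were chosen with earlier results of these data known. Counts were filtered with filterByExpr, which left 17464 genes, scaled by TMM and fitted in 1 quasi-likelihood model over all 16 libraries (edgeR 4.0.16, R 4.3.3). P-values are two-sided and adjusted by Benjamini-Hochberg over all genes tested. Adjusted p-values are printed for the separate retinoid list only. Named list genes were up to 3 called per direction and comparison, with the largest log2 fold change and 5 CPM or more in the higher group; genes named by role beyond these were chosen after their values were seen. Likeness was Pearson's r of log2 TMM CPM (prior count 2). Some genes that these rules name are not reported here. Where a symbol had several identifiers, the one with most reads was used. Counting intervals are exact and 95%.

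Alternatives were RLE size factors, no filter, DESeq2 1.42.0, limma-trend (limma 3.58.1) on log2(FPKM + 1) and log2(FPKM + 0.1) with and without a filter of 1 FPKM, libraries of 1 line only, the replicate number as a block, and leaving out each library. Offsets for GC content and length of transcripts, from natural splines of 5 degrees of freedom fitted per library, were added after the data were seen. The edgeR steps were tested on simulated data. Counting error at 12743940 to 18948283 reads per library limits genes of a few reads.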

Additional observations from a re-analysis of the deposited data

Results flagged for a closer look

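The effect of the empty vector, parental cells as control, differed between SW480 and SW620 for 16 of the 71 list genes by edgeR's interaction test (4 higher and 12 lower in SW480, SW480 minus SW620 on the log2 scale), beside 3.01% of all genes higher and 4.2% lower. The libraries labelled SW480 with empty vector stand near SW620 in the 295 genes that mark parental SW480 and only in part in the 35 that mark parental SW620, as described above, and the part of this in the differences was not tested.

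The homeobox genes HOXB2 (-4.19, adjusted p = 0.0022), HOXB3 (-3.39, adjusted p = 0.00276) and HOXB5 (-2.05, adjusted p = 0.0343) were lower, and HOXA4 was higher (1.96, adjusted p = 0.0462). HOXB3 averaged 129 CPM in parental SW480 and 12.6 with its empty vector, but 21.98 and 22.7 CPM in SW620. PLAT, tissue plasminogen activator (-4.33, adjusted p = 0.00244), NEDD9, a docking protein (-2.76, adjusted p = 0.0175), and ASB2 (-3.17, adjusted p = 0.034) were also lower.

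The reductases AKR1B1 (3.32, adjusted p = 0.0059) and AKR1C3 (2.27, adjusted p = 0.0126) were higher. AKR1B1 averaged 25.9 CPM in parental SW480 and 204 with its empty vector, against 149 and 118 CPM in SW620. SDR16C5, a retinol dehydrogenase, had a difference of -6.77 (adjusted p = 0.0167) on 98 reads in parental SW480 and 1 with empty vector. CYP26B1, which breaks down retinoic acid like CYP26A1, had -4.01 (adjusted p = 0.0468).

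RBP7 (-5.54, adjusted p = 0.0254), the orphan receptors RORA (-5.20, adjusted p = 0.0274) and NR2F2 (-2.10, adjusted p = 0.0198) and the transglutaminase TGM5 (2.32, adjusted p = 0.0369) complete the list with CES1, a retinyl ester hydrolase. The fitted -5.88 of CES1 (adjusted p = 0.0373) rests on 7 reads in parental SW480 and 0 with empty vector and depends on the prior count.

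Of these, AKR1B1, PLAT, HOXB2 and HOXB3 were called in all 16 fits that left out 1 library. The others lost their call in 1 to 14 of the 16, most often HOXA4 (14) and CYP26B1 (13).

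After the empty vector the estimates of TGM2 and RARG had opposite signs in the lines. They were -5.52 (SE 0.57) and -0.77 (SE 0.43) in SW480, and 0.55 (SE 0.48) and 0.63 (SE 0.43) in SW620. Only that of TGM2 in SW480 was called, and in SW620 no gene was called by edgeR. The groups did not overlap in either line, but the share of all genes without overlap was not counted. The effects differed by -6.07 (SE 0.72) for TGM2 and -1.41 (SE 0.61) for RARG. The same interaction term called TGM2 and did not call RARG, and nothing is read from these calls, since the genes may have been chosen on these values.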

How the results depend on the processing

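The fold changes of the 8 tested genes moved by less than the spread between replicates under RLE size factors, DESeq2 and the replicate block (64 of 64 each) and in the fits of 1 line (45 of 45). With groups of equal size, the replicate block and the fits of 1 line leave fold changes nearly as they are by construction. They mainly change the spread and the calls, so their agreement here is no test. With the GC and length offsets 18 of 64 moved beyond that spread and 5 changed sign. On log2(FPKM + 1) 17 of 48 moved and 7 changed sign. Of 1024 values with 1 library left out, 31 moved and 28 changed sign. In most of the 1024 the library left out belonged to neither group compared. Such a value changes only indirectly, so these shares do not measure stability. Apart from changes by construction (fewer libraries or genes tested), the causes were not tested.

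Counts of retinoid list genes moved as follows. In the fits of 1 line alone they were 8 for SW480 empty vector against parental, 0 for SW480 ERB against empty vector, 0 for SW480 ERB against parental, 36 for DMSO and 26 for estradiol. Without the low-count filter they were 8 for SW480 ERB against empty vector, 11 for DMSO, 3 for estradiol and 2 for the difference between lines in the ERB effect. The offsets gave 7 for SW480 ERB against empty vector and 19 for DMSO, and DESeq2 6, 13 and, for the ERB effect between lines, 1. On log2(FPKM + 1), log2(FPKM + 0.1) and the unfiltered FPKM the counts were 24, 23 and within 1.5 times for SW480 empty vector, and 21, 19 and 20 for SW480 ERB against parental; the ERB effect between lines had 1 on log2(FPKM + 1).

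Of the 9 genes, none was called in SW480 ERB against empty vector or against parental in the fit of SW480 alone, beside 0 of all genes in each. In the fit of SW620 alone 6 of them were tested, of which 4 were called for DMSO and 5 for estradiol. Beside these, 8065 and 8759 of all 16533 genes tested were called. SW480 ERB against parental had 2 without the filter, 5 with the offsets, 4 and 3 in the filtered FPKM fits and 4 in the unfiltered one. All genes called were, in the same order, 8272, 6613, 5256, 4888 and 4547. DMSO had 2 without the filter, 2 with the offsets, 2 by DESeq2 and 2 in each FPKM fit. All genes called were 2843, 3574 and 2656, and 1526, 899 and 1871 in the FPKM fits. The number of genes tested differs between these fits, and nothing is read from the counts of the 9 genes.

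Leaving out each library in turn gave 16 to 36 list genes and 3 to 6 of the 9 between parental lines, 21 to 50 and 4 to 6 for SW480 empty vector, 1 to 10 and 2 to 5 for SW480 ERB against empty vector, 11 to 43 and 1 to 2 for SW480 ERB against parental, 0 to 18 and 0 to 3 for DMSO, and 0 in each fit for the other 3 comparisons. The difference of the vector effect between lines ranged from 5 to 39 (16 over all libraries), reached at SW620 empty vector II or parental SW620 II and SW480 empty vector I, and that of the ERB effect from 0 to 1.

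The replicate numbers did not pair the libraries: deviations of same-numbered libraries correlated from -0.738 to 0.655. With the number as a replicate block, DMSO called 0 of the 9 genes, the list count of the vector effect between lines was 10, and all genes called for DMSO were 555 against 1074 without it; no other count of the list or the 9 genes moved by over 1.5 times.

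Over all genes, the parental lines differed at 3147 genes, or 5692 with the offsets. SW480 empty vector had 5399 calls (48.2% higher) against 704 (15.2% higher) in SW480 alone, 3681 (30.9% higher) on log2(FPKM + 1) and 4314 (25.2% higher) without the FPKM filter. SW480 ERB against empty vector had 800 calls (53.6% higher) without the filter and 0 in SW480 alone.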

Other observations

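STRA6, the membrane receptor for retinol uptake, was chosen after its values were seen and was present in all groups. It ranged from 32.1 ± 4.10 FPKM in SW620 with ERB and DMSO to 68.3 ± 0.71 FPKM in SW620 with empty vector, and no comparison called it by edgeR.

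FABP5, which carries retinoic acid to another nuclear receptor, had 8 to 32 reads per group in the count table (0.341 to 0.861 CPM) but 17.1 to 61.9 FPKM in the other table, so its level could not be settled from these files.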
